A study of Mus musculus with 9 samples.

Results

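Car9, Bnip3, Bnip3l, Ndrg1, Ankrd37, Ddit4, P4ha1, P4ha2 and Ero1l, targets of the hypoxia response that do not belong to glycolysis, were followed in neutrophils of tumor-bearing mice. They were chosen by name, and each of the 9 names matched 1 row of a table of 46517 genes. Neutrophils had been sorted on day 27 from the bone marrow, the blood and the pancreatic tumor of C57BL/6 mice after orthotopic transplantation (OT) of a luciferase-expressing cell line derived from pancreatic tumors of KPC mice, so that the mice of all 3 compartments carried tumors. There were 9 libraries, 3 per compartment, each from pooled mice. The labels describe the bone marrow cells as Ly6G.hi and the cells of blood and tumor as Ly6G+, so gate and compartment cannot be told apart between bone marrow and the others. No mice without tumors were analysed here.

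When oxygen is plentiful, prolyl hydroxylases mark the alpha subunit of hypoxia-inducible factor (HIF) for degradation through the VHL protein. When oxygen falls the subunit persists, pairs with ARNT and binds DNA at hypoxia response elements with a short core motif. Besides glycolysis, its targets serve pH control, removal of mitochondria, restraint of mTORC1, oxidative protein folding and the building of collagen. In neutrophils, HIF is known to prolong survival when oxygen is scarce.

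The core was searched in the 250 bases before the RefSeq start of each gene (GRCm38.p6), as ACGTG or GCGTG on either strand. Windows were at hand for 7 of the 9 genes, all but Bnip3l and Ndrg1. Each of the 7 held at least 1 core and 6 held at least 2, whereas 38.6% of all 32851 windows held at least 1 and 16.7% at least 2. The genes were chosen as known targets of the hypoxia response, so this is a description. The 6 windows with at least 2 cores had a G and C content of 67.6% to 80.8%, and that of Car9 56.4%. Windows of like content were not compared. The starts of RefSeq and of GENCODE, from which the gene positions below are taken, differ for some genes. In GENCODE terms the window lay within the gene by 60 bases for Car9, 13 for Bnip3, 64 for Ddit4, 199 for Ero1l (named Ero1a in RefSeq) and all 250 for Ankrd37 and P4ha2, and by 0 for P4ha1. Printed with each core in capitals are Bnip3 and P4ha1, which exceeded blood and bone marrow in tumor and whose windows lie almost wholly before both starts, and Ankrd37, which did not pass between tumor and blood and has 17 exonic bases in its window. Bnip3 is at chr7:138909507-138909756 (minus strand), P4ha1 at chr10:59323046-59323295 (plus) and Ankrd37 at chr8:45999851-46000100 (minus).
Bnip3: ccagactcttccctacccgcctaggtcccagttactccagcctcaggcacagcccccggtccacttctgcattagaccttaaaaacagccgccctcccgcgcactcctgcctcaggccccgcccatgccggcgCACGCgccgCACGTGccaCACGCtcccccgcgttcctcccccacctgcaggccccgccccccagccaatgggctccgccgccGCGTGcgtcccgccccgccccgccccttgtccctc
P4ha1: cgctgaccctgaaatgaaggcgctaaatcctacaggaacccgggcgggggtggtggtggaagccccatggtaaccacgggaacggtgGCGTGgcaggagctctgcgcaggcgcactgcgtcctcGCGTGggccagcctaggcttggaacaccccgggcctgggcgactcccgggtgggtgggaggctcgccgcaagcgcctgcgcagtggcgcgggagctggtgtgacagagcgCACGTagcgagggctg
Ankrd37: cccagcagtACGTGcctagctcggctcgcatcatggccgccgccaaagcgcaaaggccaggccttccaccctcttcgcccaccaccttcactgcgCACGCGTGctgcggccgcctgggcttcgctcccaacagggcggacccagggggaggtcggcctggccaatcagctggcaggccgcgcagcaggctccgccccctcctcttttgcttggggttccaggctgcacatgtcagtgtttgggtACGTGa

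Car9 held a single core, which began 18 bases before the RefSeq start, inside the gene as GENCODE draws it. Bnip3 held 5, of which an overlapping pair forms the palindrome CACGTG, a sequence found in 6.02% of all windows. Ankrd37 held 4 cores, P4ha1, P4ha2 and Ero1l 3 each, and Ddit4 2. A match of letters is not evidence of binding.

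**Figure D1:**
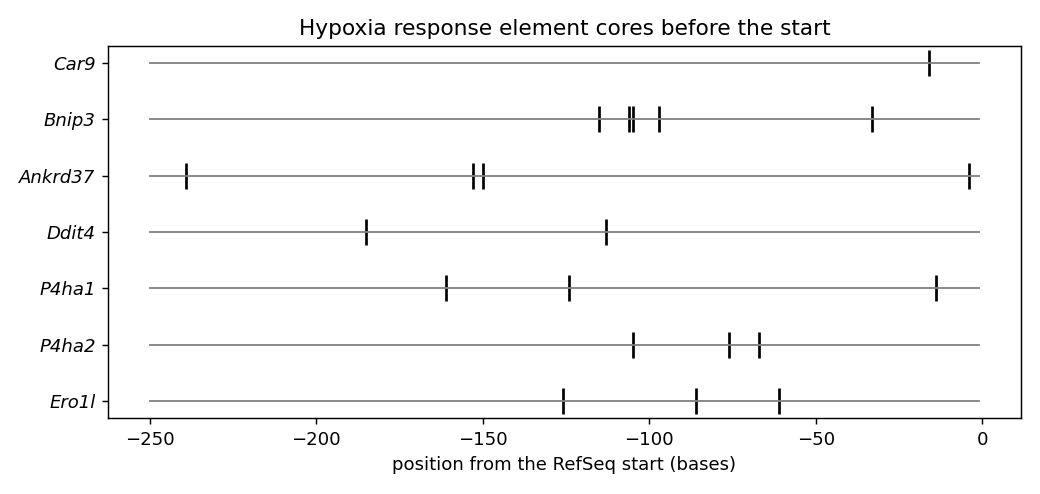
Positions of hypoxia response element cores (vertical ticks at the middle base) in the 250 bases before the RefSeq start of 7 genes, with the position from the start in bases on the x axis. Car9 holds 1 core close to the start and Bnip3 holds 5, 4 of them in a cluster.

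Libraries held 4580807 to 7949367 reads in genes, recovered from the deposited log2 FPKM values (a read level scaled by gene length and library size). All 10 neutrophil markers were detected in every compartment, but their summed level was 9674 to 12048 RPM (reads scaled to library size) in tumor, 41144 to 44072 in blood and 53429 to 57426 in bone marrow. Markers of tumor epithelium summed to 2579 to 4873 RPM in tumor libraries, 25.6 to 182 in blood and 10.1 to 13.6 in bone marrow, and fibroblast markers to 989 to 1137, 2.13 to 9.36 and 6.58 to 12.5. Acinar markers reached 794 to 2950 in tumor and at most 10.9 elsewhere. The sorting gate asked for CD45, a surface protein of blood cells that epithelial, fibroblast and acinar cells lack. No marker of these 3 lists was at 0 in all tumor libraries, and Krt8 had 6601 to 14591 reads and Col3a1 2430 to 3200. The summed macrophage markers (509 to 768 in tumor, 1672 to 1859 in blood, 538 to 583 in bone marrow), red cell markers (12.2 to 147, 295 to 611 and 36.3 to 88.9), platelet markers (5.54 to 14.2, 881 to 1205 and 10.8 to 15.4) and lymphocyte markers (6.45 to 10.7, 102 to 181 and 39.9 to 73.1) were not clearly highest in tumor. The macrophage sum leaned on Csf1r, with 4796 to 6885 reads in blood and 1254 to 1709 in tumor. Single macrophage markers differed from it, as C1qb with 19 to 29 reads in blood and 60 to 87 in tumor. For 0 of the 10 macrophage markers did every tumor library lie above all others. Endothelial markers summed to 104 to 142, 114 to 168 and 16.7 to 25.3, but Vwf, which platelets also express, had 305 to 602 reads in blood, and for 7 of the 10 markers every tumor library lay above all others, as for Kdr with 44 to 51 reads against at most 2. Immature neutrophil markers were at 6596 to 10000 in tumor libraries, 3722 to 4609 in blood and 95955 to 109893 in bone marrow. Every rise in tumor described here therefore moved together with epithelial, fibroblast and acinar RNA. It also moved with 7 of the 10 endothelial markers, though the endothelial sum was not above that of blood. How many of all genes had every tumor library above all others was not counted. The part of RNA from other cells in the results was not tested.

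**Figure D2:**
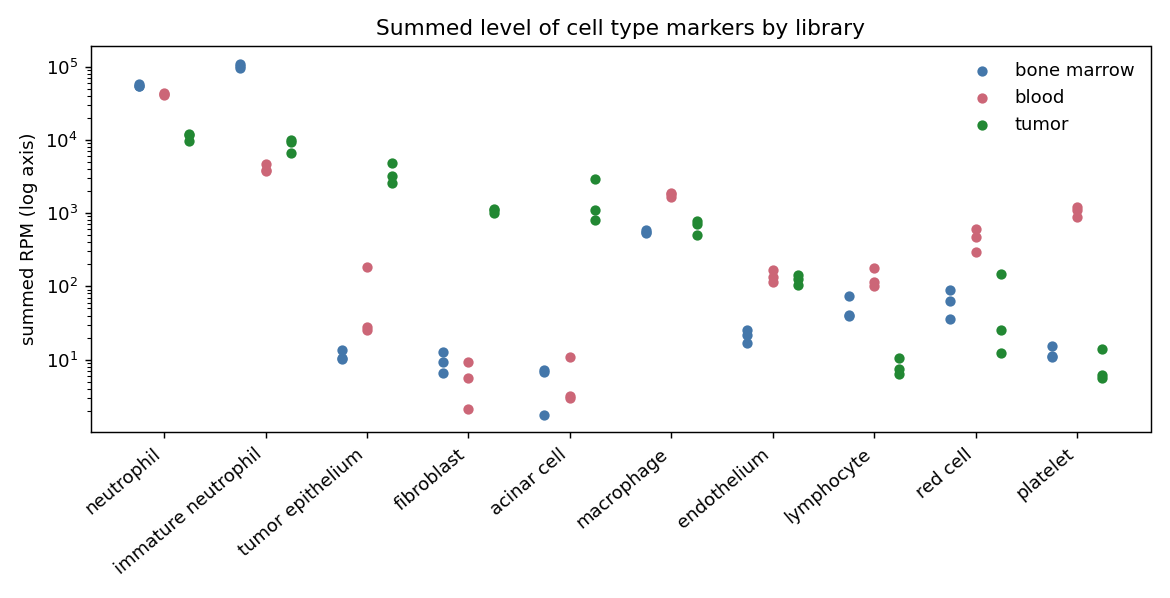
Summed level of 10 lists of cell type markers, in RPM of the scaled library size on a log axis, with 1 point per library and colors for the compartments. Tumor epithelium, fibroblast and acinar markers are highest in all 3 tumor libraries, and neutrophil markers are lowest there.

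Differences were tested with limma on log2 FPKM over 7794 genes, with Benjamini-Hochberg adjustment over all of them and a threshold of 0.05. Of the 9 genes 8 were tested. P4ha2 missed the filter, and Car9 and P4ha1 passed it through their tumor libraries, so counts over the tested genes are descriptions. The same holds of the lists given further on, in which 9 of 23 other hypoxia targets, 2 of 11 folding genes, 2 of 12 immediate early genes and Ndrg2 passed it through tumor libraries. In tumor against blood, 5 of the 8 were higher and 0 lower, where 28.1% of all tested genes were higher and 34.5% lower. That balance turned under weaker filters and with plain library totals, but not with quantile normalization or median centring. In tumor against bone marrow, 7 were higher and 0 lower, against 22.4% and 32.9% of all genes. Car9, Bnip3, Ddit4, P4ha1 and Ero1l passed as higher in both tumor contrasts, as did 16.5% of all genes. The median log2 difference of the 8 was 2.32 against blood and 2.71 against bone marrow, where it was -0.17 and -0.21 over all tested genes. In blood against bone marrow, 3 were higher and 2 lower, with 20.6% and 23.6% of all genes. The contrasts share libraries and are not independent of each other. The study itself displayed genes of the cellular response to hypoxia that were higher in tumor neutrophils of these libraries. The direction of any of the 9 genes among them is not independent evidence. In bulk samples, fewer cells of a type and less RNA per cell cannot be told apart.

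**Figure D3:**
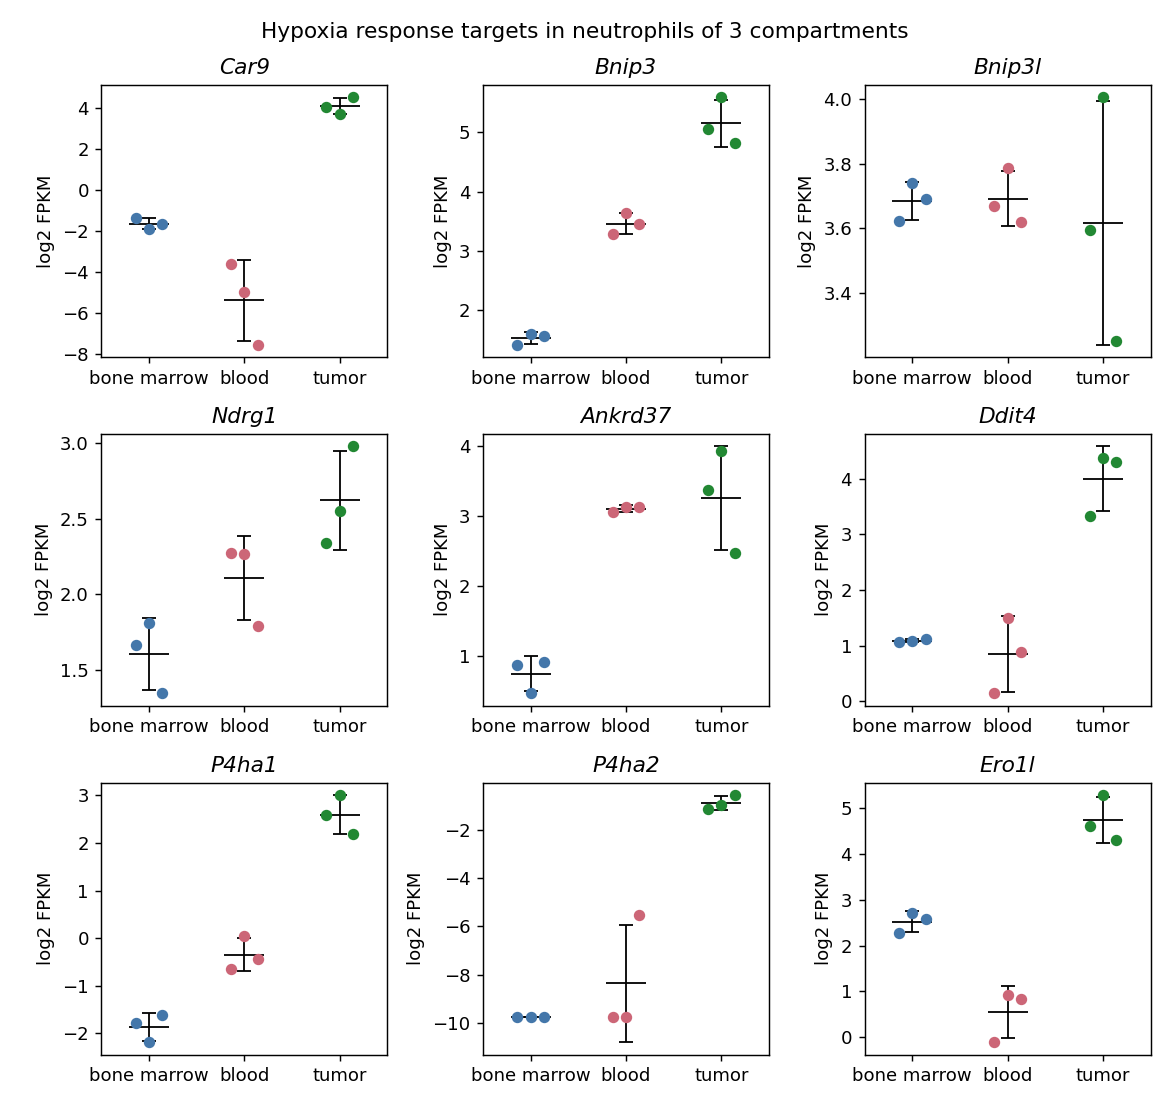
Level of each of the 9 genes in log2 FPKM (y axis, scaled per panel) in bone marrow, blood and tumor. Points are libraries, the long bar is the mean and the whiskers are the SD (n = 3), and the means of Bnip3l lie between 3.62 and 3.69 in the 3 compartments.

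Car9, a membrane carbonic anhydrase that acidifies the space around the cell (chr4:43506966-43513729), was close to absent outside the tumor. It had 17, 10 and 14 reads in bone marrow libraries, 2, 1 and 0 in those from blood and 679, 667 and 1220 in those from tumors. All tumor libraries thus stood far above the others. Summed over libraries and scaled, Car9 was 54.7-fold higher in tumor than in bone marrow (95% interval of counting error 40.2 to 76.5) and 560-fold higher than in blood (192 to 2719). The adjusted p-values were 0.000865 and 5.25e-05 with limma, whose fitted fold depends at such counts on the constant added before the log. Car9 passed the filter through its tumor libraries, so these values are descriptions. Without a filter limma gave adjusted p-values of 0.00966 and 0.00102. Car9 was also lower in blood than in bone marrow (log2 difference -3.74 ± 0.87 SE, adjusted p = 0.0101), a call lost without the filter and with a pseudocount of 1. Its antisense neighbor Gm12454 overlaps it and had 0 to 50 reads per library, and the library method does not mark strand, so reads of the pair cannot be told apart where they overlap. Within the tumor, Car9 was highest in library 3 and lowest in library 2, the same ends as the summed epithelial markers.

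Of the 15 other carbonic anhydrases 3 passed the filter. Car2, Car3 and Car4 were higher in tumor than in blood, and Car3 and Car4 also than in bone marrow, but these 2 passed the filter through their tumor libraries alone and had to differ. Car4, another membrane form, had at most 410 reads in a tumor library, 39 in blood and 1 in bone marrow, and also rose from bone marrow to blood (log2 difference 5.33 ± 0.84 SE, adjusted p = 0.00166). Car3 had at most 204, 1 and 2 reads in the same order.

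Bnip3 and Bnip3l encode related receptors of the outer mitochondrial membrane that tether mitochondria to the autophagy machinery, and they behaved differently. Bnip3 (chr7:138890836-138909519) was at 1.42, 1.60 and 1.57 log2 FPKM in bone marrow libraries, 3.29, 3.64 and 3.45 in those from blood and 5.06, 5.59 and 4.82 in those from tumors. The 3 compartments did not overlap, and each step was upward. Bnip3 was 3.24-fold higher in tumor than in blood (95% confidence interval 2.37 to 4.43, adjusted p = 0.000163), 12.3-fold higher than in bone marrow (9.02 to 16.9, adjusted p = 5.18e-06), and 3.81-fold higher in blood than in bone marrow (2.78 to 5.21, adjusted p = 0.000206). Those calls held in each of the 22 alternative fits.

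Bnip3l (chr14:66985239-67008877) was at 3.62, 3.74 and 3.69 in bone marrow libraries, 3.67, 3.79 and 3.62 in those from blood and 3.60, 4.01 and 3.25 log2 FPKM in those from tumors. The tumor libraries spread around those of the other compartments. Its log2 difference was -0.07 in tumor against blood (95% confidence interval -0.48 to 0.33, adjusted p = 0.729) and -0.07 against bone marrow (-0.47 to 0.33, adjusted p = 0.765), so that a change of the size seen in Bnip3 lay outside both intervals. When libraries were scaled by their plain totals, the median of all genes moved from -0.17 to 0.28 and from -0.21 to 0.25, and Bnip3l turned to 0.37 (adjusted p = 0.0474) and 0.38 (adjusted p = 0.0481).

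Of 20 further mitophagy receptors and BCL2 partners, 14 were tested. In tumor against blood 6 rose and 7 fell, and against bone marrow 5 rose and 7 fell, with medians of -0.44 and -0.53. The shares of all tested genes were 28.1% and 34.5% against blood, and 22.4% and 32.9% against bone marrow. Bcl2l1, an inhibitor of apoptosis, rose on the log2 scale by 1.18 ± 0.16 SE against blood and by 2.48 ± 0.16 against bone marrow (adjusted p = 0.000402 and 1.16e-05), and Phb2 and Optn, which act in mitophagy, rose as well. Nlrx1 (-1.94 ± 0.15 and -1.81 ± 0.15), Bnip2 (-0.88 ± 0.10 and -1.09 ± 0.10) and Gabarapl2, an autophagosome protein, fell.

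Ddit4, an inhibitor of mTORC1 that acts through the TSC complex (chr10:59949669-59951834), had 29, 25 and 30 reads in bone marrow libraries, 9, 33 and 18 in those from blood and 131, 330 and 328 in those from tumors. Its mean was 1.09 ± 0.03 log2 FPKM (SD, n = 3) in bone marrow, with 0.84 ± 0.68 for blood and 4.01 ± 0.58 for tumor. The tumor libraries lay above all others, and bone marrow and blood overlapped. Ddit4 was 8.95-fold higher in tumor than in blood (95% confidence interval 4.85 to 16.5, adjusted p = 0.000208) and 7.55-fold higher than in bone marrow (4.09 to 13.9, adjusted p = 0.000389). Blood and bone marrow did not differ beyond their spread (fold 0.844, 0.457 to 1.56, adjusted p = 0.642), with 9 to 33 reads in the libraries of both. Of 16 other genes of the pathway 8 were tested. Mlst8 and Akt1s1, partners of mTOR, rose against blood, and Sesn2, Eif4ebp1 and Txnip fell. Against bone marrow, Akt1s1 rose and Mlst8 and Eif4ebp1 fell. The list had medians of -0.30 and -0.17. With 2 of 8 higher and 3 lower against blood, it lay near the shares of all tested genes, 28.1% and 34.5%. Against bone marrow 1 was higher and 2 lower, where 22.4% and 32.9% of all tested genes were.

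Ddit4 also answers to stress hormones and to the integrated stress response. Of 8 tested stress response targets 4 rose and 2 fell against blood, and 4 rose and 0 fell against bone marrow. For this list and the next, the shares of all tested genes were 28.1% and 34.5% against blood. They were 22.4% and 32.9% against bone marrow. Ppp1r15a (3.73 ± 0.26 SE and 4.91 ± 0.26), Trib3 and Atf4 rose in both, and Ddit3 rose by 2.01 against bone marrow and was at 0.30 against blood. Of 6 glucocorticoid response genes 3 rose and 3 fell against blood (median -0.29), and 3 rose and 1 fell against bone marrow (median 0.64). Cdkn1a, Errfi1 and Per1 rose in both contrasts, Fkbp5 and Sgk1 fell against blood, and Tsc22d3 fell by 3.07 and by 1.02 on the log2 scale. Immediate early genes, which tissue dissociation is known to induce, rose in 11 of 12 cases in both tumor contrasts, where 16.5% of all tested genes did. Egr1 was at 7.94 ± 0.31 and 6.63 ± 0.31. Per the methods, tumors were digested with enzymes, whereas blood was treated to lyse red cells. Handling and compartment therefore cannot be told apart between tumor and blood for any of the genes. The parts of stress hormones, of the integrated stress response and of handling in the rise of Ddit4 were not tested.

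P4ha1 and P4ha2 encode catalytic subunits of collagen prolyl hydroxylase, and Ero1l an oxidase that returns protein disulfide isomerase to its oxidized form. P4ha1 (chr10:59323296-59373304) was at -1.78, -2.19 and -1.62 log2 FPKM in bone marrow libraries, -0.65, 0.04 and -0.43 in those from blood and 2.58, 3.01 and 2.18 in those from tumors. As with Bnip3, the compartments were in the order bone marrow, blood, tumor with no overlap. P4ha1 was 7.65-fold higher in tumor than in blood (95% confidence interval 4.79 to 12.2, adjusted p = 7.72e-05) and 21.9-fold higher than in bone marrow (13.7 to 35.0, adjusted p = 1.21e-05). As it passed the filter through its tumor libraries, these 2 contrasts are descriptions. In the limma fit without a filter the adjusted p-values were 0.000907 and 0.000182. It was 2.86-fold higher in blood than in bone marrow (1.79 to 4.57, adjusted p = 0.0042), a call lost with a pseudocount of 1 (log2 difference 0.49, adjusted p = 0.0515).

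P4ha2 (chr11:54100095-54131665) had 0 reads in every bone marrow library, 0, 0 and 3 in blood and 88, 123 and 171 in tumor. It was at least 111-fold higher in tumor than in bone marrow, taking a floor of 3 reads over the 3 bone marrow libraries. Against blood the ratio was 83.4, with a counting interval of 28.3 to 406.

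Ero1l (chr14:45283087-45318771) was at 2.27, 2.72 and 2.57 log2 FPKM in bone marrow libraries, -0.11, 0.92 and 0.84 in those from blood and 4.61, 5.28 and 4.30 in those from tumors. The order was thus blood, bone marrow, tumor, with no overlap. Ero1l was 18.1-fold higher in tumor than in blood (95% confidence interval 10.5 to 31.2, adjusted p = 2.75e-05) and 4.63-fold higher than in bone marrow (2.69 to 7.96, adjusted p = 0.000882). From bone marrow to blood it fell by 1.97 on the log2 scale (adjusted p = 0.00248), opposite to P4ha1 and Bnip3.

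Of 18 other genes of collagen hydroxylation and oxidative folding, 11 were tested. Against blood 8 rose and 2 fell, where 28.1% and 34.5% of all tested genes did. Against bone marrow 6 rose and 2 fell, where 22.4% and 32.9% did. From bone marrow to blood 0 rose and 6 fell, the direction of Ero1l, where 20.6% and 23.6% of all tested genes did. P4hb, the partner of the prolyl hydroxylase subunits and a substrate of ERO1 oxidases, was 2.65 ± 0.13 SE higher in tumor than in blood (adjusted p = 4.0e-06) and 1.57 ± 0.13 higher than in bone marrow (adjusted p = 3.8e-05), and 1.08 lower in blood than in bone marrow on the log2 scale. Crtap rose as well, and Serpinh1, the collagen chaperone, had at most 5 reads in bone marrow libraries, 2 in those from blood and 322 in those from tumors. Plod1 and Plod3, lysyl hydroxylases of collagen, fell in both tumor contrasts.

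Ndrg1, a cytoplasmic protein of the stress response (chr15:66929318-66969640), changed less. It was at 1.67, 1.81 and 1.35 log2 FPKM in bone marrow libraries, 2.27, 2.26 and 1.79 in those from blood and 2.34, 2.55 and 2.98 in those from tumors. Tumor libraries lay above all others, by a narrow margin over blood. Ndrg1 was 2.02-fold higher in tumor than in bone marrow (95% confidence interval 1.42 to 2.87, adjusted p = 0.00507), and 1.43-fold against blood did not pass (1.01 to 2.03, adjusted p = 0.0719). That last contrast passed in 4 of 22 alternative fits, among them quantile normalization, limma-voom on recovered reads and the fit without tumor library 1 (log2 difference 0.65, adjusted p = 0.0447). Of its relatives Ndrg2, Ndrg3 and Ndrg4 and its kinase Sgk1, 2 were tested, and Ndrg2 rose in both tumor contrasts (by 4.01 ± 1.11 SE against bone marrow) whereas Sgk1 fell against blood.

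Ankrd37, an ankyrin repeat protein (chr8:45996902-46005707), was at 0.87, 0.47 and 0.92 log2 FPKM in bone marrow libraries, 3.05, 3.13 and 3.14 in those from blood and 3.38, 3.93 and 2.47 in those from tumors. The step lay between bone marrow and blood, and the tumor libraries spread around those of blood. Ankrd37 was 5.11-fold higher in blood than in bone marrow (95% confidence interval 2.99 to 8.73, adjusted p = 0.001) and 5.68-fold higher in tumor than in bone marrow (3.33 to 9.70, adjusted p = 0.000422). Tumor against blood gave a fold of 1.11 with an interval of 0.651 to 1.90 (adjusted p = 0.711). It overlaps Ufsp2 and Lrp2bp, which had 213 to 416 and 0 to 7 reads per library, and reads in the overlaps cannot be told apart without strand.

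**Figure D4:**
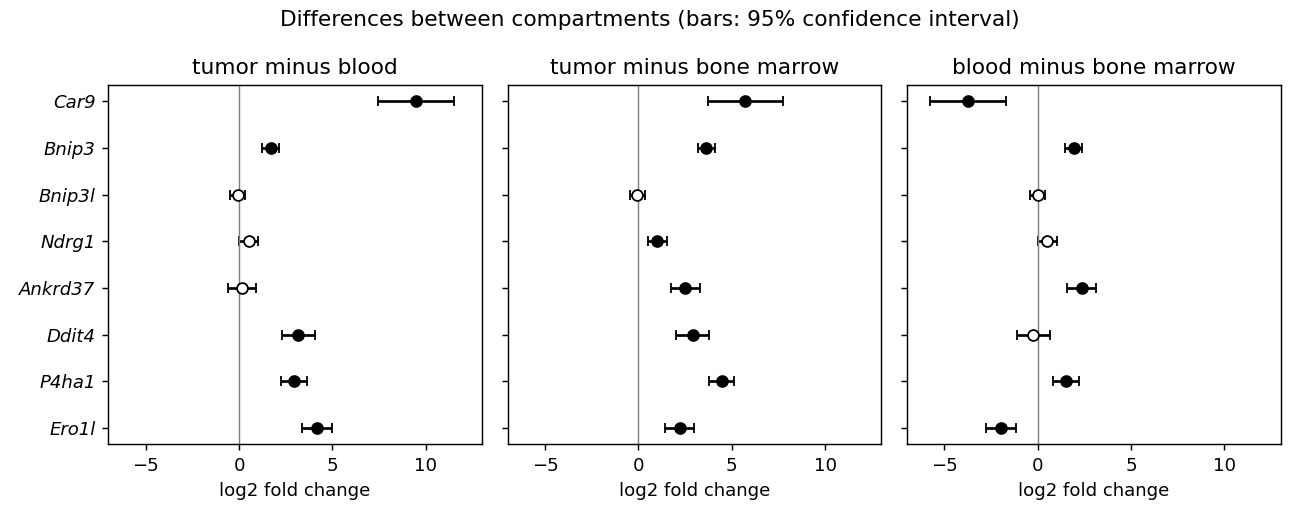
Log2 fold change of the 8 tested genes in the 3 contrasts (x axis), with 95% confidence intervals from limma as bars. Filled points passed an adjusted p of 0.05 and open points did not, and Bnip3l is open in all 3 panels.

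To set the genes beside each other, recovered reads were divided by the annotated exon length, since the deposited values were divided by the genomic span for most genes. In RPM per exon kilobase, Bnip3 was highest in tumor at 302 ± 86.0 (SD, n = 3), followed by Ero1l at 186 ± 67.1, Bnip3l at 76.9 ± 20.2, P4ha1 at 75.2 ± 21.4, Car9 at 50.8 ± 14.5 and Ndrg1 at 38.3 ± 8.91. Ddit4 (20.1 ± 7.06) and Ankrd37 (20.0 ± 9.38) lay within their spread of each other, as did Bnip3l and P4ha1, and P4ha2 was lowest at 2.78 ± 0.61. In bone marrow Bnip3l came first at 78.8 ± 3.19, before Ero1l at 38.8 ± 5.94 and Bnip3 at 23.9 ± 1.60. In blood Bnip3 (91.3 ± 11.1) and Bnip3l (79.3 ± 4.74) led, and Ero1l was at 10.3 ± 3.56.

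**Figure D5:**
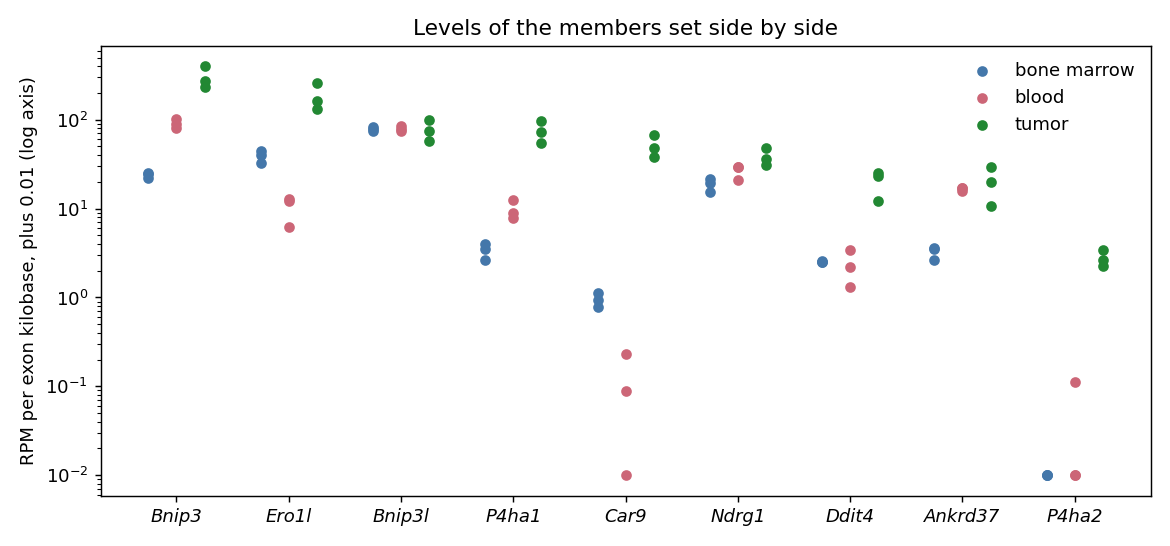
Level of the 9 genes in every library in RPM per exon kilobase, with 0.01 added for the log axis, ordered by the tumor mean. Bnip3 and Ero1l are highest in tumor, and P4ha2 lies at the bottom with bone marrow at 0 reads.

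Among the tumor libraries, library 2 was highest for 6 of the 9 genes (Bnip3, Bnip3l, Ankrd37, Ddit4, P4ha1 and Ero1l) and library 3 for the other 3 (Car9, Ndrg1 and P4ha2). Library 3 was lowest for Bnip3, Bnip3l, Ankrd37, P4ha1 and Ero1l. Epithelial markers summed to 3255, 2579 and 4873 RPM in libraries 1, 2 and 3, and neutrophil markers to 12048, 11756 and 9674. Car9, Ndrg1 and P4ha2 were thus highest in the library with the most epithelial marker RNA. Only Car9 was also lowest in the library with the least, as Ndrg1 and P4ha2 were lowest in library 1. Fibroblast markers summed to 989, 1094 and 1137 RPM in libraries 1, 2 and 3, which is the order of Ndrg1 and P4ha2. Acinar markers summed to 1110, 794 and 2950 RPM, which is the order of Car9. Ddit4 was almost equal in libraries 2 and 3 (4.38 and 4.30 log2 FPKM), and the unchanged Bnip3l had the same ends as Bnip3. These orders rest on 3 libraries and were not tested.

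Likeness of pattern was measured by Pearson's r over the 9 libraries, which is dominated by the 3 compartments. Nearest to Bnip3 were Cd14 (0.998), Bcl2l1 (0.995) and Kdm3a (0.994), a histone demethylase and itself a hypoxia target. Nearest to P4ha1 were Pim1 (0.996), Ski (0.995) and Nos2 (0.994), and nearest to Ankrd37 were Tlr4 (0.991), Csf2rb2 (0.983) and Vmp1 (0.983). Car9 was nearest to Cct3 (0.993), Ipo9 (0.991) and Alad (0.991), Ero1l to Axl, F3 and Ruvbl2 (each 0.984) and Ddit4 to Bgn, Fam20c (both 0.980) and Tnfaip3 (0.979). Ndrg1 was nearest to Actr1b (0.946), Scd1 (0.941) and Mtpap (0.940), and Bnip3l to Pafah1b1 (0.911), Stx7 (0.882) and Gm13586 (0.848). Between the genes themselves r was 0.971 for Bnip3 and P4ha1, 0.911 for Car9 and Ero1l, and 0.117 for Ankrd37 and Ero1l.

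Of 11 HIF subunits and regulators 7 were tested. Egln3, a prolyl hydroxylase that is itself a HIF target, was at -0.49 ± 0.30 (SD) log2 FPKM in bone marrow, at 1.33 ± 0.47 in blood and at 4.29 ± 0.43 in tumor, which is the order of Bnip3 and P4ha1. It rose by 2.95 against blood (adjusted p = 9.36e-05) and by 4.78 against bone marrow (adjusted p = 1.09e-05). Hif1a, the oxygen-regulated subunit, was 1.05 ± 0.18 SE higher in tumor than in bone marrow (adjusted p = 0.00158) and 0.43 ± 0.18 against blood, which did not pass (adjusted p = 0.0684). Hif1an, which inhibits HIF, was lower in tumor than in blood (-0.83 ± 0.24) and bone marrow (-0.68 ± 0.24). Vhl was lower against bone marrow (-0.53 ± 0.17) and at -0.11 ± 0.17 against blood. Arnt was higher in blood than in bone marrow (0.78 ± 0.17) and did not pass in the tumor contrasts, and Egln2 and Cited2 passed in none.

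Of 40 other hypoxia targets outside glycolysis 23 were tested. Against blood 15 rose and 5 fell, with a median of 1.73, where 28.1% and 34.5% of all tested genes did. Against bone marrow 16 rose and 3 fell, with a median of 1.89, where 22.4% and 32.9% did. Hilpda, a lipid droplet protein, had at most 10 reads in bone marrow libraries, 16 in those from blood and 6214 in those from tumors. Lox, which crosslinks collagen, had at most 1, 0 and 231 reads. Mxi1 fell by 1.06 and by 1.10 on the log2 scale, and Ypel5 by 1.46 and by 0.75. From bone marrow to blood 8 of the 23 rose and Tfrc, the transferrin receptor, fell, where 20.6% of all tested genes rose and 23.6% fell.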

How the data were processed

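RNA of sorted neutrophils was sequenced as SMARTSeq v2 libraries with paired reads. Per the labels and methods, the authors mapped reads to GRCm38 with STAR 2.5.2b and counted GENCODE M7 genes with featureCounts 1.5.0. edgeR 3.8.6 is also listed in the submitters' processing notes, without a role. The authors deposited log2 FPKM values, which were analysed here. Whole reads were recovered from the steps between these values for all 46517 genes (tolerance 0.02 reads), and showed added constants of 0.143 to 0.287 reads, scaled library sizes (0.796 to 1.22 of the totals) and, for most genes, the genomic span as length. Positions and exon lengths are from GENCODE M21, which held 46005 of the identifiers. Promoter windows are from RefSeq.

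Genes above a log2 FPKM of 0 in at least 3 libraries were fitted with limma 3.58.1 (R 4.3.3, lmFit, eBayes with trend) with 1 coefficient per compartment, and p-values are two-sided. Per the methods, replicate pools of mice were made in independent experiments. The fit and the recovery of reads were tested on simulated data. In simulated tumor against blood, the fit called 31 of 92 changes of 1 on the log2 scale and 78 of 94 changes of 2. A gene that did not pass may therefore still differ. The named genes are the 9 genes, the tested HIF regulators, up to 3 genes per direction of each other list that passed in both tumor contrasts (ranked by the smaller change), and the 3 genes most like each member. A gene that this rule selects is not reported here. Genes named beside counts outside this rule were chosen after their values were seen. The members and lists were chosen with earlier results of these data known. Reads carry no molecular identifiers, so intervals of ratios (exact binomial) and floors cover counting error only.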

Additional observations from a re-analysis of the deposited data

How the results depend on the processing

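The alternatives were 3 filters, pseudocounts of 1 and 0.1, plain library totals, quantile normalization, median centring, limma-voom on recovered reads, other variance estimates, only the 2 compartments compared, the replicate block, and each library left out, 22 fits in all. The counts of the 9 genes higher or lower in tumor stayed within 1.5 times the reported ones in all of them. Counts over all genes did not: in tumor against blood they were 4611 higher and 2921 lower without a filter, 5740 and 3574 with the filter on reads and 5871 and 3888 with limma-voom, in place of 2194 and 2686, and against bone marrow 3396 and 2574, 4469 and 3265, and 5192 and 3722, in place of 1745 and 2566. In blood against bone marrow, 1 gene in place of 2 was lower without a filter and with a pseudocount of 1, where Car9 lost its call. P4ha1 lost its call in that contrast with a pseudocount of 1 (adjusted p = 0.0515). Plain library totals reversed Bnip3l, to 0.37 in tumor against blood and 0.38 against bone marrow, and over all genes gave 2923 higher and 1898 lower in tumor against blood and 2601 and 1634 against bone marrow. Ndrg1 in tumor against blood passed with plain library totals, quantile normalization, limma-voom and without tumor library 1 (0.65, adjusted p = 0.0447). P4ha2 could be fitted only without the filter, with the filter on reads and with limma-voom, and passed in both tumor contrasts there. It met the filter on reads, which limma-voom also used, only through its tumor libraries, so its values in these fits are descriptions. Same-numbered libraries had correlated deviations of -0.071 to 0.108, so the numbers were not taken to pair libraries, and with the replicate block 5 genes were higher in tumor than in blood, 7 than in bone marrow and 5 than in both, with no call changed. Ranking genes by the authors' length in place of exon length moved 18 of 27 ranks. Genes with few reads, Car9 in blood and P4ha2 outside the tumor, are limited by depth.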
